A study of Mus musculus with 2 samples.

Results

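Clustered histone genes were examined in single-cell RNA-seq of whole mouse spinal cord at postnatal day 4. A gene was taken as a member if its symbol started with Hist1h, Hist2h, Hist3h or Hist4h, which held for 67 of the 32285 genes in the count tables, namely 6 of type H1, 18 of H2A, 18 of H2B, 12 of H3 and 13 of H4. The family had been selected on these same libraries, with differences between them already known, so the values that compare the libraries are a description and support nothing further. Each group was 1 library from pooled littermates of the FVB strain. The library labelled SMA came from mice that lacked mouse Smn (mSmn-/-) and carried the human transgene (hSMN22tg/0), and the library labelled Con came from mice with 1 intact allele (mSmn+/-) and the same transgene. Both groups therefore carried human SMN2 copies and neither was wild type. Per the study's methods, spinal cords were dissociated with trypsin and collagenase. Genotype, litter composition, sex of the pooled animals, dissociation and library preparation cannot be told apart, and no p-value was computed. All intervals are at the 95% level and cover counting error only.

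Histones package DNA. H2A, H2B, H3 and H4 form the nucleosome core, and H1 binds the DNA between nucleosomes. The clustered genes are transcribed mainly when a cell copies its DNA, and most of their mRNAs are not polyadenylated. They are cleaved just after a conserved stem-loop, a reaction that needs the stem-loop binding protein Slbp and the U7 small nuclear ribonucleoprotein, whose Sm and Lsm ring is assembled by the SMN complex. Some members also make polyadenylated mRNA, mainly in cells that have stopped dividing. Because 10x Genomics 3′ libraries are primed on poly(A), the counts below are of captured molecules and not of total histone mRNA.

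The members lie in 4 places of the mouse genome. In GENCODE M21 on GRCm38, 54 were on chromosome 13, 10 on chromosome 3, 2 on chromosome 11 and 1 on chromosome 6, and all 67 were protein-coding. The 16-base stem-loop was searched in their annotated mRNAs, on the mRNA strand, as a stem of 6 paired bases that opens with GG and closes with CC around a loop of 4 bases, with G opposite T allowed in the stem and the conserved T of the 5′ arm and A of the 3′ arm required. It was found in the models of 46 members, against 3.39% of 58797 protein-coding mRNA models. The sites of 9 members, chosen as examples of the types after their values were seen, are given from GENCODE M21 with the stem-loop in capitals and up to 5 bases on each side in lower case.
Hist1h1c: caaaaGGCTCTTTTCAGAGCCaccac
Hist1h2ae: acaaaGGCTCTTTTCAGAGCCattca
Hist1h2ap: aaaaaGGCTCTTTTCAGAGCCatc
Hist3h2a: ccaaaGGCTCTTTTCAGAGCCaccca
Hist3h2ba: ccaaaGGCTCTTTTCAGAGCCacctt
Hist2h3c2: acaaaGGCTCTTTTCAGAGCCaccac
Hist1h4h: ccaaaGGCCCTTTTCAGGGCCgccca
Hist4h4: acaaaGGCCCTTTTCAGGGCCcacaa
Hist1h4i: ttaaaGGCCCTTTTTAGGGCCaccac

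The form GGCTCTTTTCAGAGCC was shared by 26 members of types H1, H2A, H2B and H3 and by no H4 gene. The form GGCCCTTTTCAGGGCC was carried by 7 members, all H4. In Hist1h4i and Hist2h4 the loop read differently, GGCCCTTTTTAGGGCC.

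How far an annotated mRNA runs past its stem-loop differed widely among members. The model of Hist1h2ap (chr13:21833026-21833507, minus strand) ended 3 bases after the stem-loop, and that of Hist1h4h (chr13:23531050-23531519, plus strand) ended 46 bases after it. The model of Hist1h1c (chr13:23738808-23740367, plus strand) ran 840 bases past it, and that of Hist1h4i (chr13:22040636-22041362, minus strand) 330 bases. No stem-loop was found in the model of Hist1h2bc (chr13:23684199-23692908, plus strand). In 23 members the model ran at least 100 bases past the stem-loop, and 12 of these had AATAAA or ATTAAA in the last 60 bases, the hexamers that mark a poly(A) site. In 23 other members it ended closer, with such a hexamer in 2, and 21 had no stem-loop in the model, with a hexamer in 3. Over all protein-coding models the share with a hexamer there was 51.0%. Many of the 21 models without a stem-loop were short, such as 381 bases in Hist1h2bl and 312 in Hist1h4k. A stem-loop or hexamer past the end of such a model could not be found by this search. Only reads within an annotated gene are counted by the authors' tool, and the annotation release behind the counts was not given in the sources used here, so these ends may differ from those used for counting.

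Promoter sequence of RefSeq (GRCm38.p6) was found for 62 members, from 250 bases before to 50 after the start. TATAAA, on either strand, was present in 35 of these promoters (56.5%), against 14.2% of all 27025 promoters. CCAAT, on either strand, was present in 53 (85.5%), against 37.9% of all promoters. Divergent neighbours were found in 12 pairs of an H2A and an H2B gene, whose annotated starts lay 176 to 306 bases apart. The share of such pairs over all genes was not computed. Between members, sequence is nearly identical in places. A stretch of 90 bases within the last 500 of a model was shared with another member by 44 of the 67. Among them were Hist1h4h, Hist1h4i, Hist1h2ae and Hist1h2ap. Reads that lie wholly in such a stretch cannot be assigned to a member by sequence, so the counts of these members may be too low. The size of this effect was not tested. Hist1h2bc, Hist1h1c, Hist1h1b, Hist1h1e, Hist3h2a and Hist3h2ba shared no such stretch. However, the annotated span of Hist1h1e (chr13:23620629-23622558, minus strand) overlaps that of Hist1h2be (chr13:23583670-23621124, minus strand). What this overlap does to their counts was not tested.

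The library labelled SMA contained 85872075 unique molecular identifiers (UMIs) in 26921 barcodes. For the Con library the numbers were 97894084 UMIs in 25419 barcodes. A UMI marks 1 captured RNA molecule. The libraries shared 8163 barcodes, and the SMA copies of these barcodes were left out of every value below. Among 5318 shared barcodes kept in both libraries, the clustered histone level was 455 CPM (UMIs of the members scaled to a fixed total of UMIs, as for every level given here) in the SMA copies and 452 in the Con copies, a log2 ratio of 0.01 (-0.04 to 0.06). Cells were grouped into classes that are named with "-like", without using any histone gene. After filtering, 6120 SMA and 7773 Con cells of named classes other than erythroid-like ones remained, with a median of 5992 and 5942 UMIs and of 6.78% and 6.66% mitochondrial UMIs. Smn1 stood at 52.2 CPM in the SMA and 51.1 in the Con library in these cells, and its interval held 0 in each of 11 classes. Where the targeted part of Smn1 lies relative to the counted 3′ ends was not given in the sources used here, so Smn1 did not check the labels. Xist, which is transcribed from the inactive X chromosome of female cells, was at 1.53 and 614 CPM, and the part of sex in the results was not tested. In the shared barcodes above, Xist stood at 590 CPM in the SMA copies and 632 CPM in the Con copies, so those SMA copies were close to the Con library in this gene as well.

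In sums over cells of all classes, another mix of cells and another level per cell cannot be told apart, and levels by class are given further below. Clustered histone molecules were more frequent in the SMA library. In named non-erythroid cells, the members summed to 40431 of 39999443 UMIs in the SMA library and to 21513 of 48831621 in the Con library. The level was thus 1011 CPM (interval 1001 to 1021) against 441 CPM (435 to 446), which is 2.29-fold higher, or 1.20 as a log2 ratio (1.17 to 1.22). For comparison, the middle gene of 14335 that had 100 UMIs or more stood at 0.03. All types were higher. H4 differed most, at 125 and 35.3 CPM with a log2 ratio of 1.82 (1.74 to 1.90), and H2A least, at 153 and 86.4 CPM with 0.82 (0.77 to 0.88). H2B, the most abundant type, stood at 493 and 200 CPM (1.30, 1.27 to 1.34), H3 at 37.5 and 16 CPM (1.22, 1.10 to 1.35), and H1 at 203 and 103 CPM (0.97, 0.92 to 1.02).

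Of the 67 members, 30 had at least 100 UMIs over both libraries. All 30 were above a log2 ratio of 0, with a median of 0.86, and 26 had an interval above 0. The log2 ratio was past 1 in 12 of them and past -1 in 0, where 1.92% of all genes with as many UMIs were past 1 upward and 2.59% downward. Since the family was chosen with this contrast known, nothing is read from that difference in shares. With no minimum, 27 of the 61 members with a UMI in both libraries were past 1, where 6.82% of all such genes were, and nothing is read from this either. The minimum also favours members that are abundant in the SMA library. Of the other 37 members, 4 had no UMI in these cells and 33 had 820 UMIs together in the SMA and 539 in the Con library. Of the 31 of these with a UMI in both libraries, 30 lay above 0 and 11 had an interval above it. Testis-associated Hist1h1t had 0 and 2 UMIs.

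**Figure D1:**
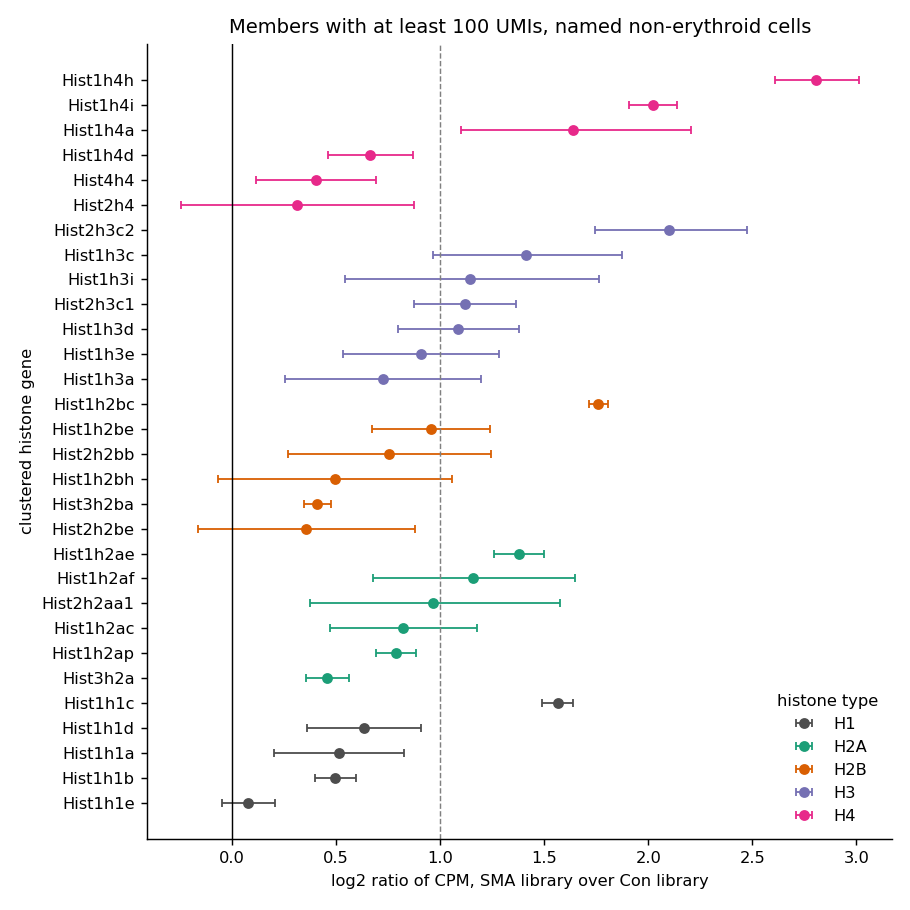
Log2 ratio of CPM, SMA over Con, for the 30 members with at least 100 UMIs in named non-erythroid cells, with 95% intervals for counting error. The solid line marks 0 and the dashed line a log2 ratio of 1; values run from 0.08 for Hist1h1e to 2.81 for Hist1h4h, and the spread within each histone type is wide.

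Within H1, the linker histones, the subtypes differed. Hist1h1c, which encodes H1.2, was counted at 4910 UMIs in the SMA and 2028 in the Con library, which is 123 and 41.5 CPM (1.56, 1.49 to 1.64). Hist1h1b, which encodes H1.5, had 1827 and 1582 UMIs (45.7 and 32.4 CPM, 0.50). Hist1h1e, which encodes H1.4, had 922 and 1066 UMIs (23.1 and 21.8 CPM), and its interval of -0.05 to 0.21 held 0. Hist1h1d had 6.35 and 4.10 CPM (0.63, 0.36 to 0.91).

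Among the H2A genes, Hist1h2ap had the most UMIs, 2165 in the SMA and 1533 in the Con library (54.1 and 31.4 CPM, 0.79). Hist1h2ae had 1705 and 801 UMIs (1.38, 1.26 to 1.5). Hist3h2a had 1671 and 1485 UMIs (41.8 and 30.4 CPM) and the lower ratio of 0.46 (0.36 to 0.56). Hist1h2ac had 165 and 114 UMIs (0.82, 0.47 to 1.18).

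Hist1h2bc alone made up 36.4% of the clustered histone UMIs in the SMA and 24.7% in the Con library. This H2B gene had 14698 and 5305 UMIs, or 367 and 109 CPM, a 3.38-fold difference with a log2 ratio of 1.76 (1.71 to 1.80). Its divergent neighbour Hist1h2ac, whose start lies 251 bases away, had far fewer molecules and a lower ratio, given above. Hist3h2ba, the next H2B gene, had 4184 and 3846 UMIs (105 and 78.8 CPM), and its ratio of 0.41 (0.35 to 0.47) was far lower. Hist1h2be and Hist2h2bb stood at 6.70 and 3.46 CPM and at 2.18 and 1.29 CPM. Without Hist1h2bc the summed level was still higher in the SMA library, with a log2 ratio of 0.95 (0.93 to 0.98).

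H3 genes were rare in the libraries, and those named here had 155 to 391 UMIs in the SMA library. Hist2h3c2 had 288 and 82 UMIs (2.10, 1.74 to 2.47), Hist2h3c1 had 391 and 220 (1.12, 0.88 to 1.36), Hist1h3d had 271 and 156 (1.08) and Hist1h3e had 155 and 101 (0.91).

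The H4 genes, which encode the same protein, ranged widest. Hist1h4h had 1375 UMIs in the SMA and 240 in the Con library, or 34.4 and 4.91 CPM, a 6.99-fold difference and a log2 ratio of 2.81 (2.61 to 3.01). Hist1h4i, the H4 gene with the most UMIs, had 2682 and 807 (67.1 and 16.5 CPM; 2.02, 1.91 to 2.14). Hist1h4d, with 449 and 346 UMIs, stood at 0.66 (0.46 to 0.87), and Hist4h4, with 211 and 195, at 0.40 (0.11 to 0.69). Hist4h4 and Hist1h4h carry the same stem-loop letters shown above and lay far apart in ratio.

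When members were grouped by the end of their annotated model, all groups were higher in the SMA library. Members whose model ran at least 100 bases past the stem-loop summed to 474 and 243 CPM in the SMA and Con libraries, a log2 ratio of 0.97 (0.93 to 1.00). Those whose model ended closer summed to 106 and 45.9 CPM, a log2 ratio of 1.21 (1.13 to 1.28). Those without a stem-loop in the model summed to 431 and 152 CPM (1.5), but without Hist1h2bc to 63.6 and 43.5 CPM (0.55, 0.47 to 0.63). Members with a long model past the stem-loop held a median of 406 UMIs over both libraries, against 49 where the model ended near it. These groups were set after the models had been seen, and the ranges of their members overlap. The group without a stem-loop holds many short models whose annotation may stop before one, so it is a group by annotation only.

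All 11 classes that held 50 or more cells per library had a higher clustered histone level in the SMA library, with every interval above 0. The level in the Con library was highest in oligodendrocyte-like cells, at 918 CPM (882 to 955), followed by Schwann-like cells at 788 CPM (749 to 828). The name of the oligodendrocyte-like class did not hold for all of its cells: with finer clusters (resolution 2), 150 of its 311 SMA and 235 of its 666 Con cells kept it. These stood at 1608 and 1163 CPM (0.47, 0.38 to 0.55). A further 116 and 341 cells, with a median of 1778.5 and 1304 UMIs, fell in a cluster left unnamed, with 3 oligodendrocyte and 3 astrocyte markers among its 60 leading genes, and stood at 955 and 410 CPM (1.22, 0.97 to 1.47). The other 45 and 90 cells were named OPC-like. OPC-like cells (oligodendrocyte precursors) stood at 674 CPM and ependymal-like cells at 637 CPM, with intervals that overlap at 658 to 686. Overlapping intervals, here and below, do not show that 2 levels are equal, and differences between classes were not tested. Mural-like cells stood at 426 CPM, astrocyte-like cells at 377 and COP-like cells (committed oligodendrocyte precursors) at 365, the last pair with overlapping intervals. Fibroblast-like cells stood at 272 CPM, endothelial-like cells at 236 and microglia-like cells at 214, the last pair again with overlapping intervals, and erythroid-like cells were lowest at 84.6 CPM. In the SMA library the order was another, with fibroblast-like cells at 1686 CPM and ependymal-like cells at 1614 the highest, and endothelial-like cells at 1444 beside oligodendrocyte-like cells at 1481.

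**Figure D2:**
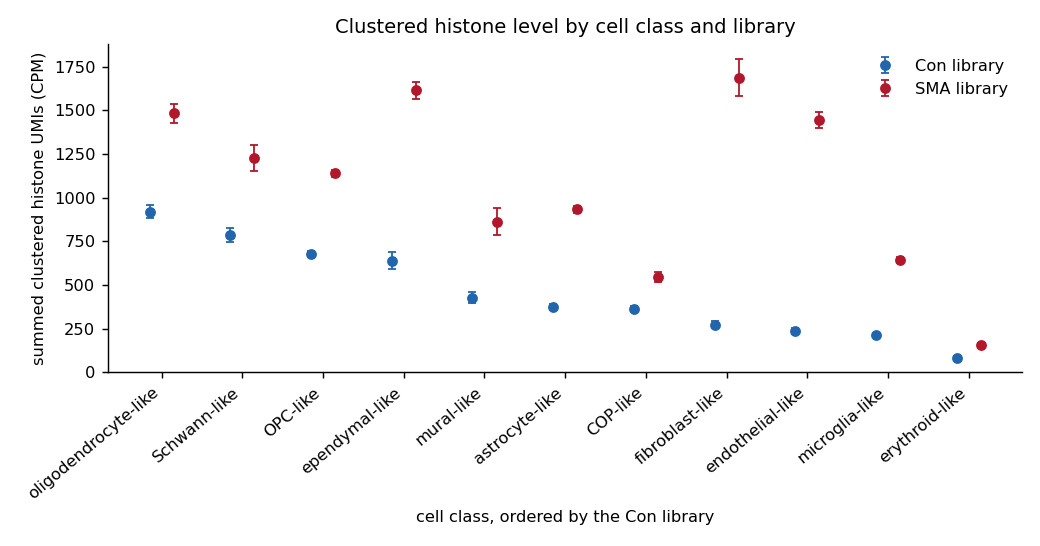
Summed clustered histone level in CPM by cell class, with 95% Poisson intervals, for the Con library (blue) and the SMA library (red). The SMA value lies above the Con value in all 11 classes; endothelial-like cells go from 236 to 1444 CPM.

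The log2 ratio was lowest in COP-like cells (0.58, 0.48 to 0.68) and next in Schwann-like (0.64), oligodendrocyte-like (0.69) and OPC-like cells (0.76, 0.71 to 0.80). It was 0.90 in erythroid-like, 1.01 in mural-like, 1.31 in astrocyte-like, 1.34 in ependymal-like and 1.59 in microglia-like cells. This order depends on the clusters, since the oligodendrocyte-like cells that kept their name with finer clusters stood at 0.47 (0.38 to 0.55), below COP-like cells. Endothelial-like cells had 2.62 (2.51 to 2.72), from 3594 UMIs in 333 SMA cells and 872 UMIs in 461 Con cells. Fibroblast-like cells had 2.63 (2.49 to 2.77), but 62 of 64 SMA cells were in cluster 20 and 431 of 599 Con cells in cluster 13. Cluster 20, with leading genes such as Slc6a13 and Igf2, was compared with itself, and the log2 ratio was then 2.40 (2.24 to 2.56). Without Hist1h2bc all 11 classes remained above 0, from 0.32 in COP-like to 2.41 in fibroblast-like cells. By type, H2B, H3 and H4 had an interval above 0 in 11 of 11 classes, H2A in 10 and H1 in 9.

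Few members reached 100 UMIs over both libraries within a class, and this minimum favours members that are abundant in the SMA library. In endothelial-like cells, 5 of 6 such members were past a log2 ratio of 1, against 0.896% of all genes. In astrocyte-like cells it was 7 of 15 (0.413% of all genes), in microglia-like cells 6 of 10 (0.321%), in OPC-like cells 5 of 18 (0.318%), in ependymal-like cells 4 of 6 (0.261%) and in fibroblast-like cells 3 of 3 (4.72%). In COP-like cells it was 2 of 5 (0.467%), in mural-like cells 2 of 4 (1.09%), in oligodendrocyte-like cells 1 of 6 (0.802%), in erythroid-like cells 1 of 3 (0.282%) and in Schwann-like cells 0 of 6 (1.48%). No such member was past -1 in any of these classes, but Hist1h1b in mural-like cells missed this cut only narrowly, at -0.9997. Since the family was chosen with this contrast known, nothing is read from these counts beside the shares of all genes.

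Hist1h2bc was above 0 in 11 of 11 classes and past 1 in 9. It stood at 50.8 CPM in Con and 596 CPM in SMA endothelial-like cells (3.55, 3.33 to 3.78), and at 62.1 and 254 CPM in OPC-like cells (2.03). In ependymal-like cells it reached the highest SMA level of any class, 877 CPM against 308. Oligodendrocyte-like and Schwann-like cells had high Con levels, 324 and 278 CPM, and low ratios, 0.69 and 0.75.

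In endothelial-like cells Hist1h2bc was also found in a larger share of cells. With each cell thinned to 1000 UMIs, 36.0% of 333 SMA endothelial-like cells had a Hist1h2bc UMI (exact interval 30.9 to 41.4) and 6.55% of 458 Con cells (4.46 to 9.22), after 3 shallower Con cells had been left out. Unthinned shares were 86.2% and 24.1%, at median depths of 6860 and 7706 UMIs. In erythroid-like cells, taken as the class with little of these mRNAs, the thinned shares were 2.12% and 2.29% and the unthinned ones 27.8% and 13.1%, at median depths of 9738 and 9860 UMIs. The Hist1h2bc level there was 41.7 CPM in SMA and 17.2 in Con (1.28, 0.96 to 1.60), and no order is read from the thinned shares, which go against it. The 5 cells with the most Hist1h2bc UMIs held 20.8% of them in SMA endothelial-like cells but 51.7% in the 64 SMA fibroblast-like cells, so the fibroblast-like level rests on few cells.

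Hist1h4h was past 1 in all 6 classes where it had 100 UMIs over both libraries. In each of these classes it reached that minimum mostly through the SMA library, so nothing is read from the count of classes. Endothelial-like cells had 380 UMIs in the SMA and 18 in the Con library, or 153 and 4.86 CPM, a 31.4-fold difference with a log2 ratio of 4.97 (4.29 to 5.74). The 5 cells with the most held 13.4% of the SMA UMIs, and the thinned share of cells with a UMI was 14.7% (11.1 to 19.0) against 1.09% (0.355 to 2.53). In erythroid-like cells that share was 0.472% in SMA and 0 of 1004 cells in Con, with an exact upper bound of 0.367%. In ependymal-like cells Hist1h4h had 229 and 11 UMIs (3.15, 2.29 to 4.17), in astrocyte-like cells 248 and 45 (2.78), and in OPC-like cells 128 and 31 (1.80, 1.23 to 2.42).

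Hist1h4i was above 0 in 9 of 9 classes and past 1 in 7. It had 371 and 39 UMIs in endothelial-like cells (3.82, 3.34 to 4.34) and 115 and 43 in fibroblast-like cells (3.64), but 52 and 72 in the fewer SMA Schwann-like cells, a log2 ratio of 0.64 (0.09 to 1.17). Hist1h1c was past 1 in 7 of 11 classes. It stood at 281 and 43.8 CPM in endothelial-like cells (2.68) and at 157 and 38.2 CPM in microglia-like cells (2.04, 1.85 to 2.23), and in COP-like cells, at 14.1 and 11.3 CPM, its interval of -0.29 to 0.92 held 0. In oligodendrocyte-like cells it was at 0.51 (0.26 to 0.75), and at -0.13 (-0.25 to -0.02) with no upper limit on genes.

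**Figure D3:**
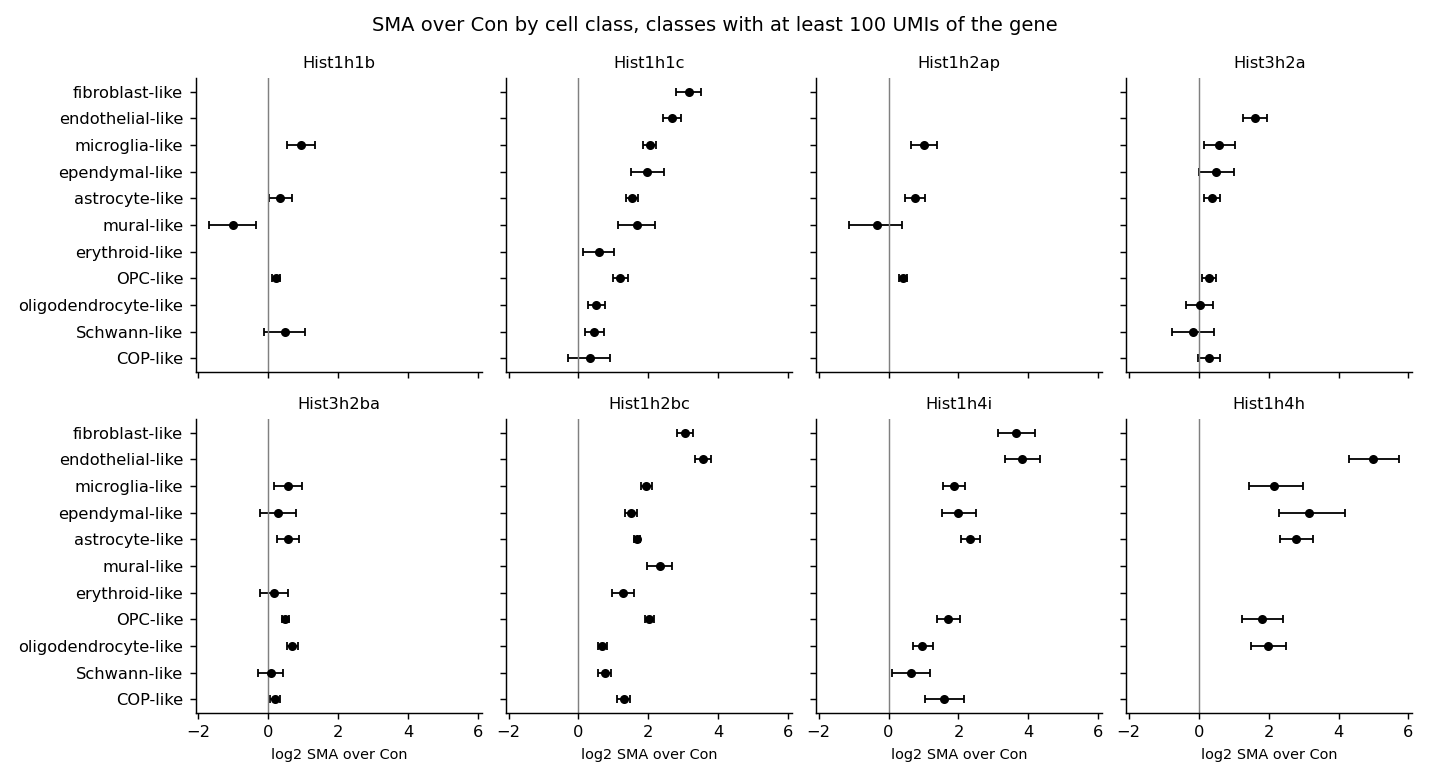
Log2 ratio of CPM, SMA over Con, for 8 members (panels) in each cell class where the member had at least 100 UMIs, with 95% intervals for counting error; classes are ordered by the ratio of the summed level. Hist1h2bc, Hist1h1c, Hist1h4i and Hist1h4h lie right of 0 in every class shown (Hist1h1c in oligodendrocyte-like cells turns to -0.13 with no upper limit on genes), whereas Hist3h2ba stays between 0.08 and 0.69 and Hist1h1b reaches -1.0 in mural-like cells.

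Hist3h2ba was past 1 in 0 of 8 classes, from 0.08 in Schwann-like cells to 0.69 in oligodendrocyte-like cells, where it was most abundant at 435 and 269 CPM. Hist3h2a was between -0.16 and 0.59 in 7 of 8 classes, and at 82.4 and 27.0 CPM in endothelial-like cells (1.61, 1.26 to 1.97). Hist1h1e was within -0.13 and 0.39 in 4 classes, with 0 in each interval. Hist1h1b was 124 and 106 CPM in OPC-like cells (0.23, 0.11 to 0.35), 0.93 in microglia-like cells, and in mural-like cells lower in the SMA library, at 23 and 146 UMIs (-1.0, interval -1.70 to -0.36). In mural-like cells Hist1h2ap, at 20 and 80 UMIs, had an interval of -1.12 to 0.39 that held 0. Hist1h1a, counted in OPC-like cells at 100 and 78 UMIs, and Hist1h1d, in OPC-like and astrocyte-like cells, had intervals that held 0.

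Which member led a class also varied. Hist1h2bc led in 10 of 11 classes of the SMA library, with 54.4% of the histone UMIs in ependymal-like cells. Hist3h2ba led in COP-like cells in both libraries, with 38.9% (36.3 to 41.5) in SMA and 51.1% (49.0 to 53.1) in Con. In the Con library Hist3h2ba also led in OPC-like cells (20.1%, followed by Hist1h1b with 15.7%), and Hist1h1b led in mural-like cells (19.3%).

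Division state was then examined, because most members are known to be made in S phase. A cell was called cycling if at least 2 of 1000 thinned UMIs came from 31 S phase and 40 mitosis genes, none of them a histone gene. This held for 43.3% of SMA OPC-like cells and 766 of 1533 Con OPC-like cells, 19.7% and 19.5% of astrocyte-like cells, 27.8% and 20.7% of microglia-like cells, and 17.7% and 22.0% of oligodendrocyte-like cells. In erythroid-like cells the shares were 6.60% and 8.67%. Without thinning they were 51.2% to 83.1% in the 4 classes compared, so the call depends on depth, and 379 SMA and 274 Con OPC-like cells lay 1 UMI below the cut. These calls alone do not show that a cell was dividing, and the part of free RNA in them was not tested.

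The clustered histone level was higher in cycling cells of 3 classes in both libraries. OPC-like cells had 1712 CPM in cycling and 616 CPM in other cells of the SMA library, a log2 ratio of 1.47 (1.42 to 1.53), and 944 and 356 CPM in the Con library, 1.41 (1.32 to 1.49). Astrocyte-like cells had ratios of 1.40 in SMA and 0.99 in Con, and microglia-like cells 1.42 and 1.52. Oligodendrocyte-like cells, which are postmitotic when mature, did not follow in the total, with 0.14 (-0.05 to 0.31) from 51 cycling SMA cells and -0.48 (-0.67 to -0.29) from 121 Con cells. The part that the cells of this class unnamed at resolution 2 had in these values was not tested.

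**Figure D4:**
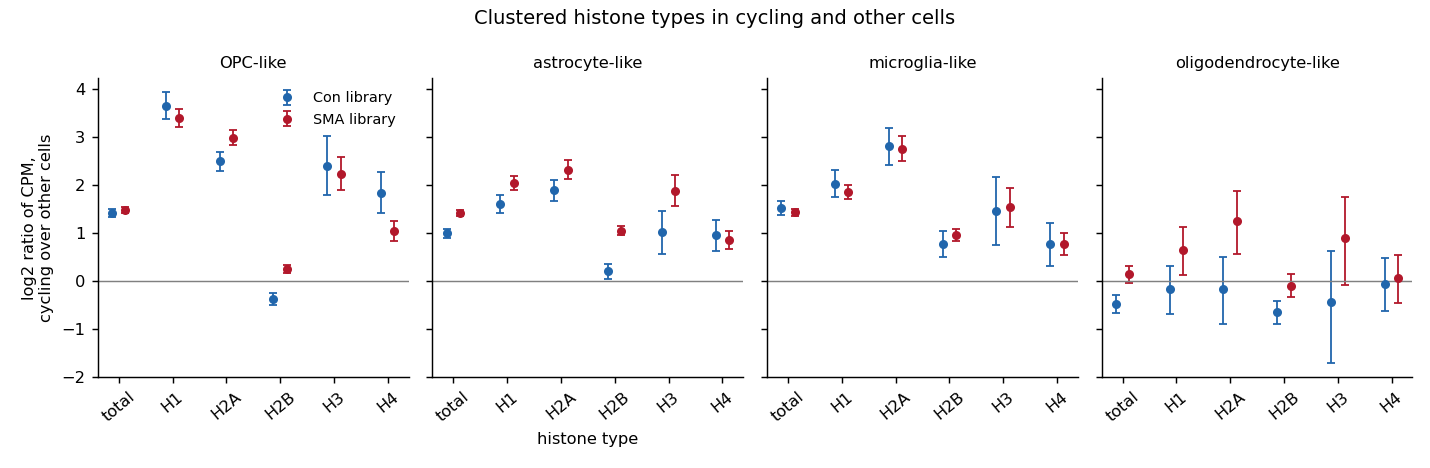
Log2 ratio of CPM, cycling over other cells, for all members and by histone type in 4 cell classes, for the Con (blue) and SMA (red) libraries, with 95% intervals for counting error. H1 and H2A stand at 1.61 to 3.64 in OPC-like, astrocyte-like and microglia-like cells, whereas H2B stands at 0.24 and -0.38 in OPC-like cells of the SMA and Con libraries.

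The types differed in this. In OPC-like cells H1 was 461 and 44.0 CPM in cycling and other SMA cells (3.39) and 330 and 26.5 in Con cells (3.64), whereas H2B was 515 and 435 CPM in SMA (0.24) and 190 and 248 in Con cells (-0.38, -0.51 to -0.25). H3 had ratios of 2.22 and 2.38 and H4 of 1.04 and 1.82. In astrocyte-like cells H2A had 2.31 in SMA and 1.88 in Con, and in microglia-like cells 2.74 and 2.80. In oligodendrocyte-like cells of the SMA library H2A was at 1.24 (0.56 to 1.87), from 26 UMIs in cycling cells. H1 was there at 0.63 (0.12 to 1.11) and H2B at -0.11 (-0.35 to 0.13). In the Con library H1 and H2A of this class were at -0.18 and -0.17, with intervals that held 0, and H2B at -0.66.

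Single members spanned the whole range. Hist1h1b had 1329 UMIs in cycling and 13 in other OPC-like cells of the SMA library (6.81, 6.03 to 7.72) and 966 and 4 in the Con library (7.67, 6.31 to 9.55). Hist1h2ap had 1503 and 21 UMIs in SMA (6.30) and 957 and 9 in Con (6.49), and Hist1h2ae 987 and 44 (4.62) and 436 and 12 (4.94). Hist1h1e followed with 389 and 39 UMIs in SMA (3.45) and 348 and 40 in Con (2.88). Hist3h2ba and Hist3h2a went the other way, at -0.55 and -0.51 in SMA and at -0.85 and -0.82 in Con. Hist1h2bc was 0.63 (0.52 to 0.74) in SMA and -0.04 (-0.28 to 0.21) in Con, and Hist1h1c 1.51 and 1.29. Thus Hist1h1b and Hist1h2ap were counted almost only in cycling OPC-like cells of both libraries, and Hist1h2bc in both states.

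In OPC-like cells the ratio was past 1 in 7 of 12 members with 100 UMIs in SMA, against 3.5% of all genes, and in 6 of 10 in Con, against 3.39%. In astrocyte-like cells it was 7 of 12 (2.04% of all genes) and 4 of 9 (2.08%), and in microglia-like cells 5 of 9 (2.13%) and 0 of 3 (1.96%). In oligodendrocyte-like cells it was 0 of 5 in both libraries, against 3.63% and 3.92% of all genes. The minimum was set on both states together, so a member high in cycling cells could reach it mostly through those cells. Of the members past 1 in SMA OPC-like cells, all except Hist1h1c had under 100 UMIs in other cells. Nothing is read from these counts beside the shares of all genes. In astrocyte-like cells Hist1h1b and Hist1h2ap were again the highest, at 5.16 and 5.29 in SMA and 5.24 and 5.57 in Con. In SMA microglia-like cells Hist1h1b had 173 UMIs in cycling and 4 in other cells (6.68, 5.30 to 8.57), Hist1h2ap was at 4.92, Hist1h2ae at 3.47 and Hist1h1e at 2.86. In Con microglia-like cells these had under 100 UMIs each, and stood at 6.32, 5.40, 4.23 and 3.17. Of the members with 100 UMIs in both libraries, Hist1h1c was at 1.44 and 0.82, Hist1h2bc at 0.99 and 0.68, and Hist1h4i at 0.66 and 0.68. In oligodendrocyte-like cells Hist3h2ba was at -0.97 and -0.59.

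Among cycling cells, those with more mitosis-list than S phase-list UMIs held more clustered histone molecules. In OPC-like cells of the SMA library, 382 mitosis-leaning cells had 2504 CPM and 352 S-leaning cells 856 CPM, a log2 ratio of -1.55 (-1.62 to -1.47) for S-leaning over mitosis-leaning, and in the Con library it was 1393 and 578 CPM (-1.27). In microglia-like cells it was -2.06 and -1.98, and in astrocyte-like cells -1.5 and -1.06. The leaning rests on few UMIs, since 165 cycling SMA OPC-like cells had exactly the 2 thinned UMIs of the cut. It is a label from the 2 lists and does not place a cell in S phase or in mitosis.

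Within each state the SMA library was still higher. Cycling OPC-like cells had a log2 ratio of 0.86 (0.81 to 0.91) for SMA over Con and the other OPC-like cells 0.79 (0.70 to 0.88). For astrocyte-like cells these were 1.57 and 1.15, for microglia-like cells 1.34 and 1.44, and for oligodendrocyte-like cells 1.22 and 0.60. Hist1h2bc was at 2.34 (2.16 to 2.52) in cycling and 1.68 (1.48 to 1.88) in other OPC-like cells, and Hist1h1c at 2.26 and 1.64 in microglia-like cells. Hist1h1b had 0.40 in cycling OPC-like cells and an interval that held 0 in cycling astrocyte-like (0.34) and microglia-like cells (0.33).

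Histone variants and the factors that make histone mRNA 3′ ends were set beside the members. The variants are encoded by single genes with polyadenylated mRNA and are used outside S phase as well. None of 11 variants was past 1 in either direction in named non-erythroid cells, where 1.92% of all genes were past 1 upward and 2.59% downward. Their median log2 ratio was 0.26, and they summed to 7339 and 6433 CPM (0.19, 0.18 to 0.20). H2afj, an H2A variant, stood at 353 and 259 CPM (0.45, 0.41 to 0.48), Cenpa, the centromere H3, at 114 and 86.5 CPM (0.40) and H1fx at 13.7 and 17.5 CPM (-0.35, -0.51 to -0.20). Of 25 3′ end factors in the tables, 24 had at least 100 UMIs and 0 were past 1 in either direction, with a median of 0.05 and a range of -0.19 to 0.42. Upf1, an RNA helicase needed for histone mRNA decay, stood at 0.42 (0.32 to 0.53), and the Sm proteins Snrpf at 0.40 and Snrpg at 0.38. Slbp was at 125 and 110 CPM (0.19, 0.13 to 0.24), and the U7-specific ring proteins Lsm10 at -0.19 (-0.31 to -0.07) and Lsm11 at 0.26 (0.07 to 0.45). By class, 2 of 9 variants with 100 UMIs were past 1 in Schwann-like cells (1.48% of all genes) and 1 of 10 in endothelial-like cells (0.896%). No 3′ end factor was past 1 in any of the 11 classes, where 7 to 24 of them had 100 UMIs. With lists this short and such small shares of all genes, nothing is read from these counts.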

How the data were processed

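The authors had aligned 10x Genomics 3′ version 3 reads with Cell Ranger to mouse genome mm10 (per the submitters' processing notes) and deposited raw UMI counts per gene and barcode. The file headers give Cell Ranger 4.0.0, which differs from the methods. The annotation release was not given in the sources used here. Counts carry no correction for depth, and no column was left unused (0). Members and lists were chosen with earlier results of these data known.

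Barcodes with under 200 or over 4000 genes or at least 10% mitochondrial UMIs, and SMA barcodes also listed for Con, were left out. Doublets were treated by the limit on genes alone. Cells were clustered with scanpy 1.11.5 and igraph 0.11.9 (2000 variable genes, 30 components, 20 neighbours, Louvain resolution 1) without the members, histone variants, 3′ end factors, cell cycle lists, Smn1 or Xist. The 31 clusters were named from at least 3 detected markers. Clusters 8, 17 and 22 held no marker of their class among their 60 leading genes (8 and 17 were led by division genes) and took it from the markers detected. A cluster with a ribosomal share over 30% (1338 Con cells) and 1 unnamed cluster were dropped. Neuron-like (45 SMA and 26 Con), macrophage-like (38 and 67) and monocyte-like cells (20 and 285) were too few to compare by class and entered the pooled sums only.

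UMIs were summed per class and library and scaled to CPM. Ratios have exact conditional binomial intervals, levels exact Poisson and shares exact Clopper-Pearson intervals; the calculation was tested on simulated data. A count of 0 was set to 3 counts for calls. The text names, per type, the 4 most abundant members; per class, the 2 highest and 2 lowest SMA over Con ratios and, where compared, cycling over other ratios; Hist1h4h; the 3 variants and the 3 factors furthest from 0; and Smn1. The 4 members that reached 100 UMIs and a ratio past 1 in cycling microglia-like cells of the SMA library alone, Hist1h1t, Hist2h4, Slbp, Lsm10, Lsm11 and Xist were added after their values were seen. With 1 library per group there was no test between groups. Alternatives are given in the closing section.

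The alternatives with 1 fibroblast-like cluster and without Hist1h2bc were chosen after seeing the data.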

Additional observations from a re-analysis of the deposited data

Results flagged for a closer look

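Hist1h1b went opposite ways in 2 classes. It was higher in the SMA library in microglia-like cells (log2 ratio 0.93) and lower in mural-like cells (-1.0, interval -1.70 to -0.36), where 92 SMA and 260 Con cells were compared. In mural-like cells the cycling share was 27.2% in SMA and 31.8% in Con. The difference between the classes was not tested.

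Hist1h2bc went opposite ways between libraries in oligodendrocyte-like cells when cycling cells were set against other cells, at 0.43 (0.14 to 0.71) in SMA and -0.77 (-1.13 to -0.43) in Con. Only 51 SMA and 121 Con cells were called cycling in that class, 23 and 117 shallow cells had been left out, and the median depth was 3441 and 1986 UMIs. The difference between the libraries was not tested.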

How the results depend on the processing

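The summed level stayed higher in the SMA library in every class with enough cells under the 8 alternatives that change it throughout (all kept SMA barcodes, deep cells, the 20% limit, no upper limit on genes, equal weights, centring, resolution 2 and without Hist1h2bc). The log2 ratio of the total, 1.20, was 1.07 with all kept SMA barcodes, 1.16 with a mitochondrial limit of 20%, 1.00 with no upper limit on genes, 1.17 centred on the median gene and 0.95 without Hist1h2bc, a choice made after seeing the data. With all kept SMA barcodes H1 was 0.86, H2A 0.68, H2B 1.18, H3 1.09, H4 1.64, the variants 0.16 and the 3′ end factors 0.11. With no upper limit on genes H1 was 0.82, H2B 1.00, H3 1.09, H4 1.5 and the 3′ end factors 0.15, and Hist1h1c in oligodendrocyte-like cells turned to -0.13; the cause was not tested. H2B was 1.25 at the 20% limit and 0.47 without Hist1h2bc. The variants were 0.20 in deep cells, 0.17 at the 20% limit and 0.16 centred, and the 3′ end factors 0.13 centred. With no minimum of UMIs, 27 members in place of 12 were past 1, beside 6.82% in place of 1.92% of all genes. At resolution 2 the total in oligodendrocyte-like cells was 0.47 in place of 0.69.

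For cycling over other cells, OPC-like cells (SMA and Con) were 1.57 and 1.53 in deep cells, 1.40 and 1.30 at the 20% limit, 1.33 and 1.25 with cells weighted equally, 1.69 and 1.60 from 3 UMIs of 1000 and 1.76 and 1.59 without Hist1h2bc, and the SMA value was 1.55 centred and 1.40 at resolution 2. Astrocyte-like cells were 1.30 and 0.89 at the 20% limit, 1.68 and 1.22 from 3 UMIs and 1.74 and 1.44 without Hist1h2bc, and the SMA value was 1.32 with all SMA barcodes, 1.27 weighted equally and 1.5 at resolution 2. Microglia-like cells were 1.34 and 1.36 at the 20% limit, 1.21 and 1.35 weighted equally, 1.84 and 1.85 from 3 UMIs and 1.66 and 1.81 without Hist1h2bc, with 1.5 in deep SMA cells and 1.70 in Con with no upper limit on genes. Oligodendrocyte-like cells were -0.10 (SMA) at the 20% limit, 0.32 (SMA) centred and -0.86 (Con) from 3 UMIs, where SMA cells were too few. No paired analysis was possible because each group was 1 library.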
